A study of Mus musculus with 12 samples.

Results

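Asns encodes asparagine synthetase, the enzyme that makes asparagine from aspartate and glutamine, and it was described here with 9 other genes of the amino acid and unfolded protein stress responses. The 9 are Psat1, Phgdh, Atf4, Atf5, Ddit3, Xbp1, Trib3, Chac1 and Hspa5. Asns was chosen because it was higher in Zfp541-KO than in WT libraries of these data, so its genotype difference is a description and was not tested. The others were chosen for their place in the same response, with earlier results of these data known. The 10 symbols match 11 of 55450 gene identifiers in the deposited table, since Ddit3 has 2, of which ENSMUSG00000116429.1 held 0 UMIs and is not described further.

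The data are unique molecular identifier (UMI) counts, which count single cDNA molecules, from single testis germ cells of C57BL/6 mice. There were 4 groups of 3 libraries: Zfp541-KO at 260 h, WT at 260 h, Zfp541-KO at 360 h and WT at 360 h after retinoic acid (RA). Mice of all 4 groups were fed WIN 18,446, which blocks RA synthesis, from 2 days post partum for 7 days, and then had 1 injection of RA, which restarts spermatogenesis in synchrony. The earlier time is labelled early pachytene and the later one late pachytene, the stages of meiotic prophase with fully paired chromosomes. Cells were picked singly by mouth pipette. The labels name neither the deleted stretch of Zfp541 nor the animals behind each library. The p-values therefore reflect how the libraries vary, and part of that variation may be technical.

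The amino acid response starts when cells lack an amino acid: the kinase GCN2 phosphorylates the translation factor eIF2α, most translation slows, and Atf4 mRNA is translated more. The ATF4 protein then switches on genes for amino acid synthesis and uptake, Asns among the classic ones. In the unfolded protein response the kinase PERK acts on the same eIF2α, while the sensor IRE1 splices Xbp1 mRNA and the ER chaperone gene Hspa5 rises. Counts of the kind used here read mRNA level and show neither translation of Atf4 nor splicing of Xbp1.

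The upstream sequences of Asns and Chac1 are shown because each carries a match to the element through which ATF4 is known to act on Asns. They are the 250 bases before the RefSeq start of each gene (RefSeq, GRCm38.p6, 5′ to 3′ on the gene's strand), with matches to the C/EBP-ATF response element (CARE, TGATGNAA, searched on both strands) in capitals. Asns lies at chr6:7693210-7693459 on the minus strand, and Chac1 at chr2:119350992-119351241 on the plus strand.
Asns: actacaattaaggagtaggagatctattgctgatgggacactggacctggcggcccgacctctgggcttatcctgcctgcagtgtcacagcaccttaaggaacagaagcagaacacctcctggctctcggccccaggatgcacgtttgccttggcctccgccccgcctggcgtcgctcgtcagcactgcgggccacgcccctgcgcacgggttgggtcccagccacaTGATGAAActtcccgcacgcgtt
Chac1: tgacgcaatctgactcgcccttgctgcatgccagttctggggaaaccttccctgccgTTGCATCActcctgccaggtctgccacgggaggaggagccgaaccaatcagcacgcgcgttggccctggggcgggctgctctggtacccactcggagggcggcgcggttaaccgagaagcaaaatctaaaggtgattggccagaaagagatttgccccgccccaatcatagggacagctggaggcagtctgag
The Asns match TGATGAAA begins 23 bases before the RefSeq start. The deposited gene model starts 45 bases further upstream, so in that model the match lies inside the gene. The Chac1 match TTGCATCA reads on the opposite strand and begins 193 bases before the start. Of all 32851 windows of this length, 1134 (3.45%) held a CARE match, and of the 12 windows of the 10 genes, 2 did. The ER stress element (ERSE, CCAAT, 9 bases of any kind and CCACG, on both strands) had a match in 37 windows (0.113%) and in 1 of the 12, that of Hspa5, where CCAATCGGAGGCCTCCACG begins 65 bases before the start. The CARE and ERSE matches do not overlap, being in windows of different genes. A match of letters is a description and not a binding site.

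The libraries held 929 kept cells in all, 50 to 94 each, with 3601518 to 27202665 gene UMIs per library. The authors sorted the cells into 5 k-means clusters: cluster 1 is called pre-meiotic, clusters 2 and 3 early pachytene, and clusters 4 and 5 late pachytene. The 5 germ cell markers (Ddx4, Dazl, Mael, Sycp3, Tex101) summed to 3053 to 5429 counts per 1000000 (CPM, scaled by TMM) in every library. The 6 spermatogonia markers summed to 1609 to 2955 CPM in cluster 1, against 40.8 to 332 CPM in the other 4 clusters. CPM of a cluster is per 1000000 UMIs of its sum, here and below, without TMM scaling. Pre-meiotic cells made up 28.0% to 36.0% of KO and 16.2% to 46.2% of WT libraries at 260 h, and 0% to 11.2% of KO and 1.06% to 2.35% of WT libraries at 360 h. WT libraries 1 and 2 at 260 h stood apart: 40 and 45 of their cells held 10 or more UMIs of Leydig cell or macrophage markers, against 7 in WT library 3, and their pachytene cells were almost all in cluster 2, while those of WT library 3 were all in cluster 3 with the KO cells. The 7 Leydig markers summed to 15.1 to 26.0 CPM in KO libraries at 260 h, against 105, 68.8 and 20.7 CPM in the WT libraries, and the 8 macrophage markers to 2.74 to 14.6 CPM in KO, against 57.7, 87.9 and 5.17 CPM in WT. Within the Leydig list Star had 11.4 to 14.0 CPM in KO and 16.2 to 19.4 CPM in WT. Insl3 had 53 UMIs in KO library 2 and 0 in WT. Other somatic markers overlapped between the genotypes at 260 h. The 7 Sertoli markers summed to 201 to 258 CPM in KO, against 390.4, 150.3 and 149 CPM in WT. The 8 peritubular and endothelial markers summed to 159, 104 and 58.7 CPM in KO, against 184, 141 and 30.6 CPM in WT. The libraries used the same set of 96 barcodes, all of them kept in 2 or more libraries. Zfp541 itself had 75.8 to 123 CPM in KO and 38.1 to 129 CPM in WT libraries at 260 h, and 130.5 to 156 CPM in KO and 169.6 to 199.8 CPM in WT libraries at 360 h, and was not called at either time. Reads came from the 3′ end of transcripts, so with the deleted part unknown this checks nothing.

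Asns was higher in KO than in WT libraries at both times, and the WT libraries of the 2 times overlapped. At 260 h Asns had 74.1, 45.8 and 50.0 CPM in KO libraries (807, 335 and 243 UMIs), against 24.4, 5.34 and 5.39 CPM in WT libraries (103, 30 and 74 UMIs). At 360 h it had 80.4, 44.6 and 39.9 CPM in KO libraries (638, 435 and 440 UMIs), against 3.85, 2.92 and 5.71 CPM in WT libraries (42, 31 and 129 UMIs). The KO and WT libraries did not overlap at either time, which follows from how the gene was chosen. The log2 fold change of KO over WT was 2.31 ± 0.54 (SE) at 260 h and 3.71 ± 0.57 at 360 h, which are 4.96-fold and 13.0-fold. In KO the mean was 55.0 ± 22.2 CPM at 360 h and 56.7 ± 15.2 CPM at 260 h (SD, n = 3 each). In WT the range was 2.92 to 5.71 CPM at 360 h and 5.34 to 24.4 CPM at 260 h, with library 1 at 260 h the only WT value above 6 CPM. Without WT library 1 the log2 fold change at 260 h was 3.33, and with WT library 3 as the sole WT library of that time it was 3.27. Without cells holding 10 or more Leydig or macrophage marker UMIs, called somatic UMIs below, it was 2.30. Sertoli, peritubular and endothelial markers did not enter that filter. Without pre-meiotic cells it was 3.69.

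**Figure D1:**
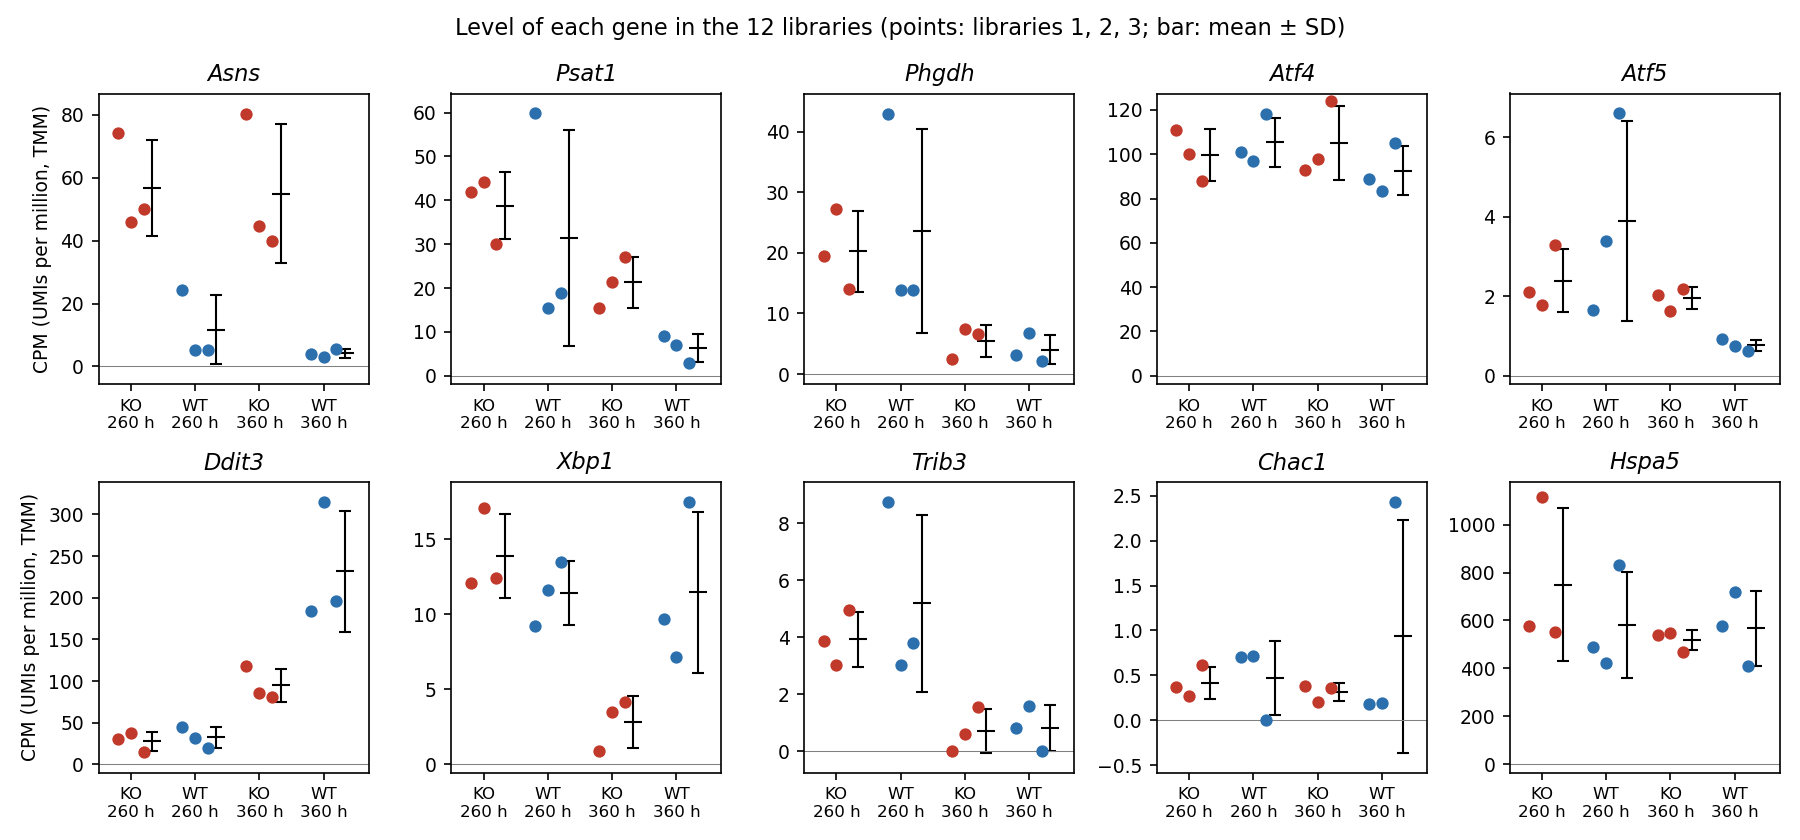
Level of each of the 10 genes in CPM (UMIs per 1000000, TMM-scaled) in the 12 libraries, KO in red and WT in blue, with 1 point per library and the mean ± SD beside them; the vertical scale differs between panels. KO libraries lie above WT libraries at both times for Asns (39.9 to 80.4 against 2.92 to 24.4 CPM), whereas Ddit3 and Xbp1 lie below WT at 360 h and Atf4 stays between 83.6 and 124 CPM throughout.

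By cluster, Asns differed between the genotypes in pachytene cells and overlapped in pre-meiotic cells. Over all pachytene clusters with at least 10 cells of a library, Asns had 40.3 to 100.2 CPM in 6 KO sums and 1.93 to 12.3 CPM in 6 WT sums. Pre-meiotic cells had 24.3 to 52.3 CPM in 4 KO sums and 13.2 to 45.6 CPM in 3 WT sums. Cluster 3 holds early pachytene cells of both genotypes at 260 h, and there Asns had 100.2, 53.6 and 91.1 CPM in KO libraries 1, 2 and 3 (141 cells), against 3.13 CPM in WT library 3 (72 cells). That WT value is a single library. The other WT early pachytene cells were in cluster 2, with 12.3 and 4.93 CPM in WT libraries 1 and 2. Late pachytene cells fell into separate clusters by genotype: Asns had 73.8, 44.9 and 40.3 CPM in KO cells of cluster 4 (220 cells), against 2.80, 1.93 and 4.69 CPM in WT cells of cluster 5 (267 cells). Within each KO library at 260 h, early pachytene cells were higher than pre-meiotic cells, by 100.2 against 31.8, 53.6 against 27.1 and 91.1 against 24.3 CPM. Within each WT library at 260 h it was the other way round, with 12.3 against 45.6, 4.93 against 13.2 and 3.13 against 18.1 CPM. The clusters were made from the same cells and genes, so these values are a description. They are not TMM-scaled and so are not on the scale of the library values.

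**Figure D2:**
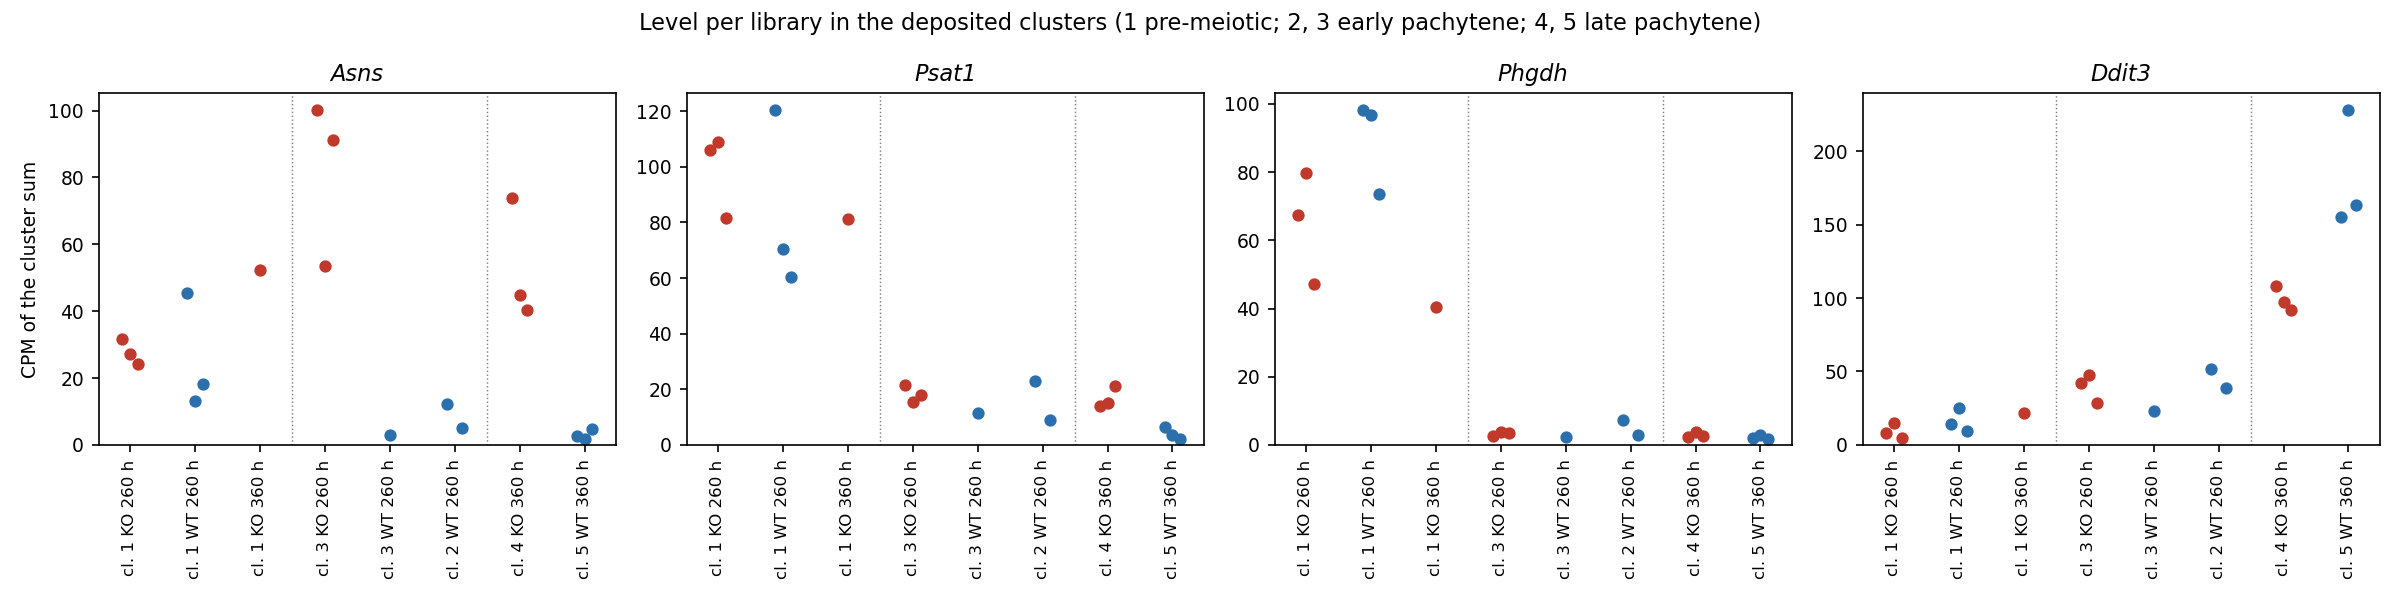
Asns, Psat1, Phgdh and Ddit3 in CPM of the UMIs summed per library and deposited cluster (cl.), without TMM scaling, with 1 point per library that had at least 10 cells there, KO in red and WT in blue. Asns in KO stays at 40.3 to 100.2 CPM in pachytene clusters where WT is at 1.93 to 12.3 CPM, while Psat1 and Phgdh are high in cluster 1 in both genotypes and Ddit3 is highest in cluster 5.

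Most KO pachytene cells held Asns UMIs. After each cell was thinned to 40000 gene UMIs to equalise depth, 122 of 141 KO pachytene cells at 260 h had an Asns UMI (86.5%), against 28 of 157 WT cells (17.8%). At 360 h 183 of 227 KO pachytene cells did (80.6%), against 20 of 267 WT cells (7.49%). In pre-meiotic cells at 260 h the shares were 38 of 61 KO cells (62.3%) and 25 of 52 WT cells (48.1%). Per library, the share over all cells was 79.1% ± 8.08 in KO and 28.7% ± 19.7 in WT at 260 h, and 81.8% ± 10.2 in KO and 8.09% ± 0.590 in WT at 360 h (SD, n = 3 each). Without thinning these means were 87.4% in KO and 44.5% in WT at 260 h, and 96.8% in KO and 28.0% in WT at 360 h. Among the KO pachytene cells the median was 7 Asns UMIs per cell at 260 h and 5 at 360 h, the highest cells held 32 and 27, and no cell held more than 2.66% of the UMIs of its group and time. No count of cells enters a test.

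**Figure D3:**
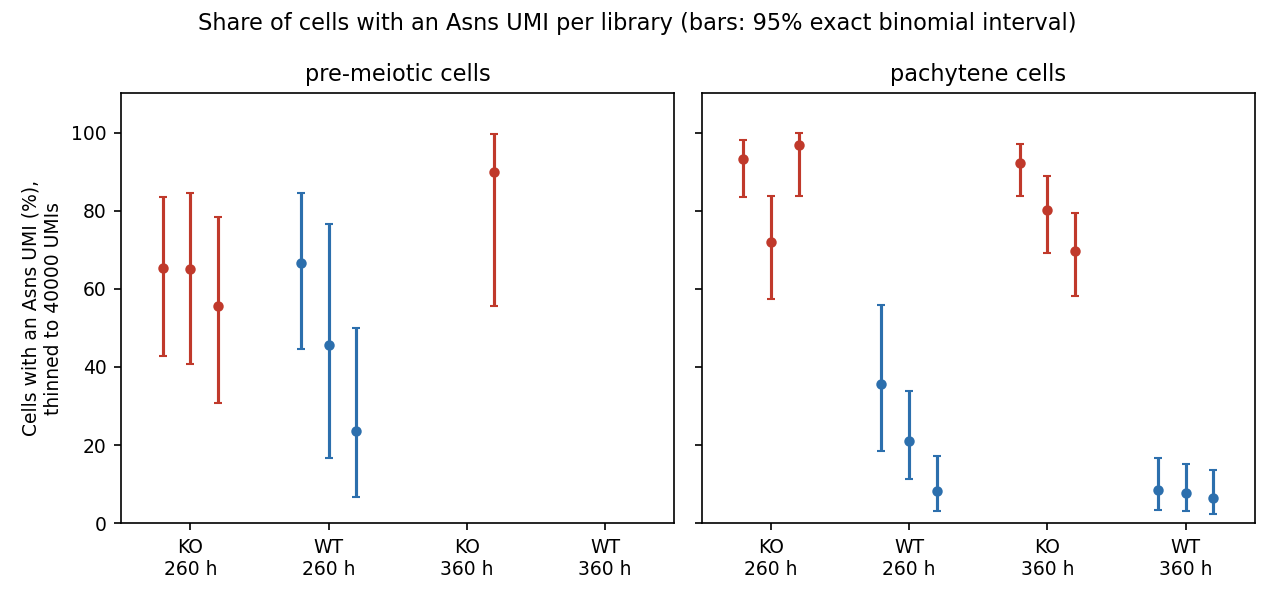
Percent of cells with at least 1 Asns UMI after thinning to 40000 UMIs, per library, for pre-meiotic cells (left) and pachytene cells (right); bars are 95% exact binomial intervals, which cover counting error only, and libraries with fewer than 10 cells of a class are left out. In pachytene cells the KO libraries lie at 69.6% to 96.9% and the WT libraries at 6.45% to 35.7%, while in pre-meiotic cells at 260 h the intervals of the genotypes overlap.

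The serine synthesis genes are known ATF4 targets like Asns. Psat1 was called higher in KO at 360 h, and Phgdh was not called at either time. Phgdh catalyses the first step of serine synthesis and Psat1 the second. At 260 h Psat1 had 42.0, 44.2 and 30.1 CPM in KO libraries, against 59.8, 15.5 and 18.8 CPM in WT libraries. WT library 1 lay above all KO libraries and the groups overlapped, with a log2 fold change of 0.32 ± 0.50 and an edgeR adjusted p of 0.867. At 360 h Psat1 had 15.4, 21.4 and 27.0 CPM in KO libraries, against 9.17, 7.07 and 2.96 CPM in WT libraries. Every KO library was above every WT library, and Psat1 was called higher in KO (log2 fold change 1.74 ± 0.52, or 3.35-fold, edgeR adjusted p = 0.0237). The call was lost without KO library 2 (adjusted p = 0.0656), KO library 3 (0.0905), WT library 2 (0.0595) or WT library 3 (0.0840) in the same edgeR test, and with spike-in scaling (0.0729). In pre-meiotic cells Psat1 was high in both genotypes, at 81.1 to 109 CPM in KO and 60.5 to 120.4 CPM in WT. In late pachytene cells it had 14.1, 15.1 and 21.1 CPM in KO cells of cluster 4, against 6.29, 3.71 and 2.25 CPM in WT cells of cluster 5.

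Phgdh followed the pre-meiotic cells in both genotypes. It had 19.5, 27.2 and 14.0 CPM in KO libraries at 260 h, against 43.0, 13.9 and 13.8 CPM in WT libraries. At 360 h Phgdh had 2.52, 7.38 and 6.53 CPM in KO libraries, against 3.21, 6.70 and 2.12 CPM in WT libraries. The groups overlapped at both times, and Phgdh was not called by edgeR (adjusted p = 0.931 at 260 h and 0.603 at 360 h). By cluster it had 40.5 to 98.2 CPM in pre-meiotic cells and 1.70 to 7.29 CPM in pachytene cells, with the KO pachytene sums at 2.31 to 3.91 CPM, within the WT range.

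Of the 9 genes other than Asns, 8 passed the filter on low counts and were tested, and Chac1 did not. Of these 8, 0 were called between KO and WT at 260 h by edgeR (adjusted p under 0.05), where 1.89% of all 20279 genes tested were called (0.582% higher and 1.31% lower). At an unadjusted p under 0.05 edgeR found 0 of the 8, and DESeq2 called 0. At 360 h 3 of the 8 were called, 1 higher (Psat1) and 2 lower (Ddit3 and Xbp1), where 22.5% of all genes tested were called (8.93% higher and 13.5% lower). The median log2 fold change of the 8 was -0.14 at 260 h and 0.06 at 360 h, beside -0.01 and 0.03 over all genes tested.

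Among the transcription factors, Atf4 mRNA, at the centre of the response, was not called at either time. It had 111, 100.1 and 87.7 CPM in KO libraries at 260 h, against 101, 96.9 and 118 CPM in WT libraries. At 360 h Atf4 had 93.0, 98.0 and 124 CPM in KO libraries, against 89.0, 83.6 and 105 CPM in WT libraries. The groups overlapped at both times. The log2 fold change was -0.08 at 260 h (95% interval -0.53 to 0.38, edgeR adjusted p = 0.939) and 0.18 at 360 h (-0.27 to 0.63, adjusted p = 0.615). By cluster Atf4 had 113 to 146 CPM in KO and 132 to 143 CPM in WT pre-meiotic sums. In early pachytene cells it had 87.2 to 112 CPM in KO and 88.0 to 121 CPM in WT. In late pachytene cells it had 85.4, 104 and 130.3 CPM in KO cells of cluster 4, against 74.0, 59.9 and 87.4 CPM in WT cells of cluster 5, where the lowest KO value lies below the highest WT value. These cluster values are not TMM-scaled, so they are not on the scale of the library values. In WT library 2 at 360 h, 871 of 886 Atf4 UMIs lay in cluster 5, yet the library had 83.6 CPM and the cluster 59.9 CPM.

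Atf5, a related factor whose mRNA is also under translational control, was low. It had 2.11, 1.78 and 3.29 CPM in KO libraries at 260 h (13 to 23 UMIs), against 1.66, 3.38 and 6.62 CPM in WT libraries (7 to 91 UMIs). At 360 h it had 2.02, 1.64 and 2.18 CPM in KO libraries (16 to 24 UMIs), against 0.917, 0.755 and 0.619 CPM in WT libraries (8 to 14 UMIs). The KO libraries were all above the WT libraries at 360 h, but Atf5 was not called (log2 fold change 1.35 ± 0.66, edgeR adjusted p = 0.158). It was called in a fit to the 6 libraries of that time alone (adjusted p = 0.0477). The 5′ end of Atf5 overlaps Nup62 and Il4i1 on the opposite strand.

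Ddit3, which encodes the factor CHOP that ATF4 switches on under lasting stress, was lower in KO at 360 h, the opposite direction to Asns. It had 118, 85.2 and 81.4 CPM in KO libraries at that time, against 184, 315 and 196 CPM in WT libraries. No KO library reached the lowest WT library, and Ddit3 was called lower in KO (log2 fold change -1.29 ± 0.36, edgeR adjusted p = 0.0189). The call was lost in edgeR without WT library 2 (adjusted p = 0.0599), KO library 2 (0.0561) or KO library 3 (0.107). At 260 h it had 29.8, 38.0 and 15.0 CPM in KO libraries, against 45.2, 31.5 and 20.1 CPM in WT libraries, and was not called (edgeR adjusted p = 0.886). By cluster Ddit3 was lowest in pre-meiotic cells, at 4.71 to 21.6 CPM in KO and 9.48 to 24.9 CPM in WT, and highest in late pachytene cells, at 108, 97.1 and 92.0 CPM in KO cells of cluster 4, against 155, 228 and 163 CPM in WT cells of cluster 5. The 3′ end of Ddit3 overlaps that of Mars, the methionyl-tRNA synthetase gene, on the opposite strand (Ddit3 at chr10:127290774-127296288 plus strand, Mars at chr10:127296221-127311786 minus strand, mm10). The sources do not say whether reads were counted by strand, so reads of the 2 genes may not be fully told apart. Mars moved the other way at 360 h, with 107, 68.4 and 62.7 CPM in KO libraries, against 23.5, 27.3 and 41.2 CPM in WT libraries.

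Xbp1, whose mRNA is spliced by IRE1 to make the active factor of the unfolded protein response, was also lower in KO at 360 h. It had 0.882, 3.48 and 4.17 CPM in KO libraries (7, 34 and 46 UMIs), against 9.71, 7.17 and 17.5 CPM in WT libraries (106, 76 and 396 UMIs). All KO libraries were below all WT libraries, and Xbp1 was called lower in KO (log2 fold change -2.00 ± 0.55, edgeR adjusted p = 0.0155). The edgeR call was lost without WT library 3 (adjusted p = 0.0723) and in a fit to the libraries of that time alone (0.0540). At 260 h it had 12.1, 17.1 and 12.4 CPM in KO libraries, against 9.22, 11.6 and 13.5 CPM in WT libraries, and was not called (edgeR adjusted p = 0.899). Xbp1 was higher in pre-meiotic sums, at 9.01 to 50.3 CPM in KO and 14.6 to 38.4 CPM in WT, than in most pachytene sums, at 0.810 to 7.30 CPM in KO and 4.75 to 14.5 CPM in WT. Without pre-meiotic cells the log2 fold change at 260 h turned to -0.87, still not called by edgeR (adjusted p = 0.525). In late pachytene cells it had 0.810, 2.52 and 3.17 CPM in KO cells of cluster 4, against 8.08, 4.75 and 14.5 CPM in WT cells of cluster 5.

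Hspa5, the ER chaperone BiP and the usual readout of unfolded protein stress, overlapped between the genotypes at both times. It had 575, 1117 and 553 CPM in KO libraries at 260 h, against 488, 421 and 833 CPM in WT libraries. At 360 h it had 540.4, 546 and 469 CPM in KO libraries, against 575, 717 and 408 CPM in WT libraries. It was not called by edgeR at 260 h (log2 fold change 0.37, 95% interval -0.27 to 1.01, adjusted p = 0.727) or at 360 h (-0.13, -0.77 to 0.51, adjusted p = 0.811). In the cluster shared by both genotypes at 260 h, cluster 3, Hspa5 had 681, 1350.3 and 912 CPM in KO libraries, against 919 CPM in WT library 3, within the KO range. Cluster 2 held 631 and 486 CPM in WT libraries 1 and 2.

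Trib3, a pseudokinase induced by ATF4 and CHOP that feeds back on ATF4, was near the limit of these counts. It had 3.86, 3.01 and 4.94 CPM in KO libraries at 260 h, against 8.75, 3.02 and 3.79 CPM in WT libraries. At 360 h Trib3 had 0, 6 and 17 UMIs in KO libraries, against 9, 17 and 0 UMIs in WT libraries. A count of 0 allows up to 0.378 CPM in KO library 1 and up to 0.133 CPM in WT library 3. It was not called at 260 h or 360 h (edgeR adjusted p = 0.932 and 0.974). Like Phgdh it lay in pre-meiotic cells, at 6.31 to 16.5 CPM in KO and 16.7 to 22.0 CPM in WT, against 0 to 1.29 CPM in KO and 0 to 1.68 CPM in WT pachytene sums.

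Chac1, an enzyme that degrades glutathione and a further ATF4 target, had 84 UMIs in all libraries together and was not tested. KO libraries held 2 to 4 UMIs each at both times, against 0 to 4 UMIs in 5 of the WT libraries and 55 UMIs in WT library 3 at 360 h. In that library 8 of 94 cells held Chac1, and 1 cell held 23 of the UMIs. The same library held 1 cell with 67 Asns UMIs, which was 52.8% of all Asns UMIs in its pachytene cells.

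These WT cells differed from the rest of their cluster in another way. Of the 267 WT cells of cluster 5 at 360 h, 4 had 10 or more UMIs of Asns or Chac1, a limit chosen after the values were seen, and all 4 were in library 3. Their 6 spermatid markers (Acrv1, Spaca1, Tnp1, Prm1, Tssk1, Spaca7) summed to 4302, 2299, 1895 and 957 CPM, against 0 to 120.1 CPM with a median of 17.9 CPM in the other 263 cells. The cell with 67 Asns UMIs held 374 UMIs of the protamine gene Prm1 and 0 of Chac1, while the other 3 held 15, 5 and 3 Asns UMIs and 16, 11 and 23 Chac1 UMIs. The 4 cells held 90 of 127 Asns UMIs and 50 of 55 Chac1 UMIs of their library's cluster 5 cells. Without them Asns in cluster 5 of WT library 3 was 1.46 CPM, below its 4.69 CPM with them.

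**Figure D4:**
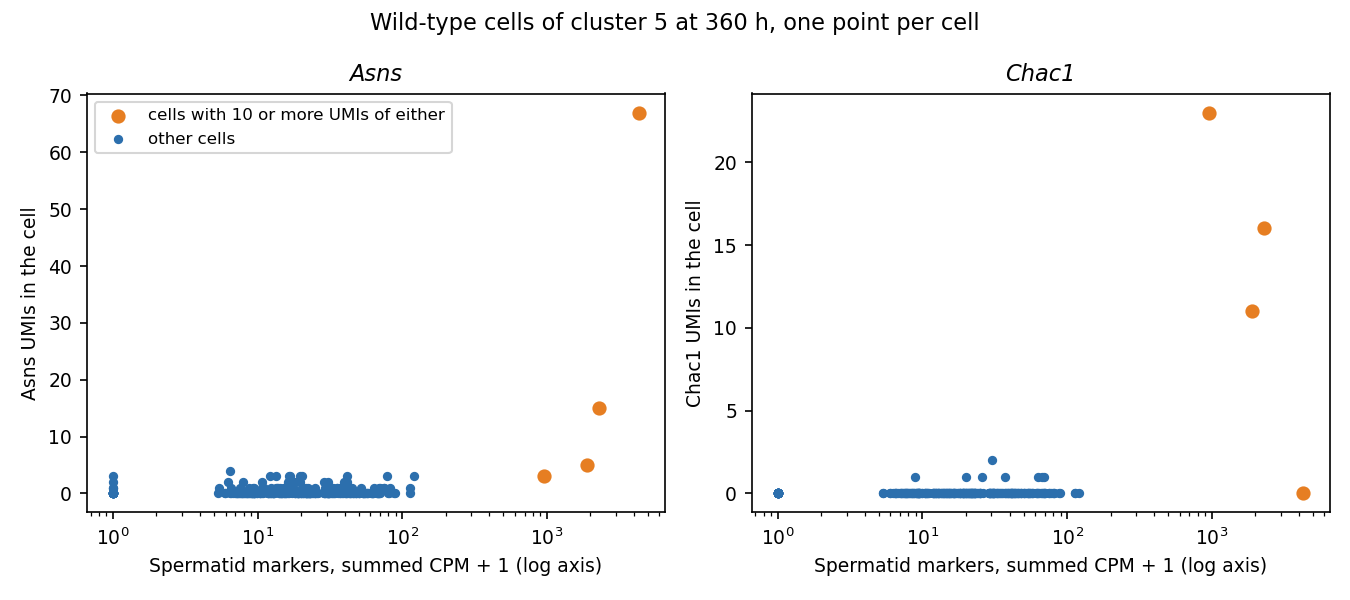
Asns UMIs (left) and Chac1 UMIs (right) per cell against the summed CPM of 6 spermatid markers plus 1 (log axis), for the 267 WT cells of cluster 5 at 360 h; the 4 cells with 10 or more UMIs of either gene are in orange. The 4 cells lie at 957 to 4302 CPM of spermatid markers, and the other 263 cells lie at 0 to 120.1 CPM with at most 4 Asns and 2 Chac1 UMIs.

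Between the times, Ddit3 rose in both genotypes and the serine synthesis genes fell in WT. In WT, 360 h against 260 h, edgeR called 4 of the 8 genes, with 39.9% of all genes tested called (20.9% higher and 18.9% lower). Ddit3 rose 7.22-fold (log2 fold change 2.85 ± 0.39, adjusted p = 6.24e-05 in edgeR), while Psat1 (-2.29 ± 0.53, adjusted p = 0.00304), Phgdh (-2.56 ± 0.60, 0.00364) and Atf5 (-2.37 ± 0.67, 0.0108) fell. Trib3 had -2.71 ± 1.13 and was not called by edgeR (adjusted p = 0.0681), but it was called by DESeq2 (adjusted p = 0.0378), which called 5 of the 8, and by edgeR with no filter on low counts (0.0179). The Phgdh call was lost without pre-meiotic cells (adjusted p = 0.620) and, in the fit with WT library 3 as the sole WT library at 260 h, at adjusted p = 0.0813. The Atf5 call was lost in edgeR without WT library 3 at 260 h (adjusted p = 0.0819), without WT library 2 at 360 h (0.0533) and with spike-in scaling (0.0537). In KO, 360 h against 260 h, edgeR called 3 of the 8, with 23.5% of all genes tested called (13.3% higher and 10.2% lower): Ddit3 rose (1.77 ± 0.37, adjusted p = 0.00339), and Phgdh (-1.88 ± 0.59, 0.0307) and Xbp1 (-2.27 ± 0.55, 0.00829) fell. Without pre-meiotic cells neither Phgdh (edgeR adjusted p = 0.940) nor Xbp1 (0.282) was called in KO, and Ddit3 still was. The Phgdh call in KO was also lost in edgeR without KO library 1 or 2 at 260 h (adjusted p = 0.0805 and 0.129) and without KO library 1 or 3 at 360 h (0.112 and 0.0779). It was lost too with thinned cells (edgeR adjusted p = 0.0784), without cells holding somatic UMIs (0.0641) and with spike-in scaling (0.0815). The Xbp1 call in KO was lost with spike-in scaling (edgeR adjusted p = 0.0792), and Psat1 was called lower at 360 h in a fit to the KO libraries alone (-0.84, edgeR adjusted p = 0.0420). Asns had a log2 fold change of -1.44 ± 0.54 in WT and -0.05 ± 0.50 in KO between the times, not tested. The WT value was -0.35 without WT library 1 at 260 h, and also with WT library 3 as the sole WT library of that time, -0.61 without pre-meiotic cells and -0.58 with spike-in scaling.

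The genotype effects of the 2 times were also compared directly. By edgeR 0 of the 8 genes differed between 360 h and 260 h in their KO effect, with 5.08% of all genes tested called (2.30% higher and 2.78% lower). Atf5 (2.08 ± 0.91, adjusted p = 0.208) and Xbp1 (-2.27 ± 0.75, adjusted p = 0.0946) had an unadjusted p under 0.05 in edgeR, a count of 2. DESeq2 called 1, Xbp1 (adjusted p = 0.0117). The difference for Psat1 was 1.43 ± 0.71 (edgeR adjusted p = 0.270) and for Ddit3 -1.08 ± 0.51 (0.248), so that an effect called at 360 h alone is not shown to differ from that at 260 h for either gene.

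**Figure D5:**
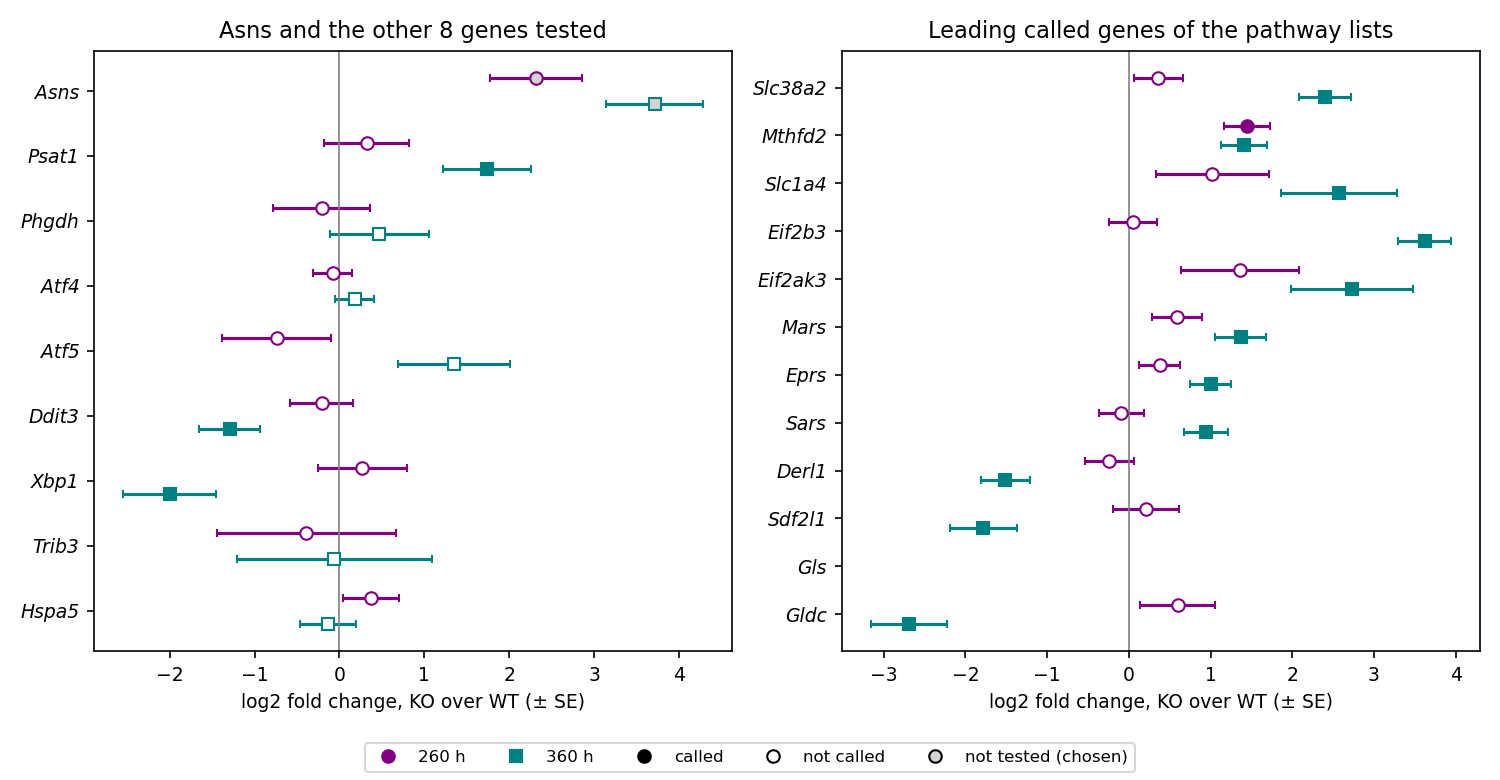
Log2 fold change of KO over WT with its SE at 260 h (circles) and 360 h (squares), for Asns and the 8 genes tested with it (left) and for the leading called genes of 5 pathway lists (right); filled symbols were called by edgeR at adjusted p under 0.05, open ones were not, and grey ones were not tested. Asns stands at 2.31 and 3.71, Psat1 at 1.74 at 360 h, and Ddit3 and Xbp1 at -1.29 and -2.00 at 360 h.

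Other genes of the pathways were read from 5 lists, which were also chosen with earlier results of these data known. Of 32 amino acid response targets besides those above, 26 were tested. At 260 h edgeR called 1 of the 26 (3.85%), beside 1.89% of all genes called and 0.582% called higher. The gene was Mthfd2, higher in KO. This mitochondrial one-carbon enzyme had 125 ± 19.9 CPM in KO and 45.9 ± 18.4 CPM in WT (SD, n = 3 each; log2 fold change 1.45 ± 0.28, edgeR adjusted p = 0.0140). That call was lost in fits without KO library 1 or 2 or without WT library 2 or 3, with WT library 3 as the sole WT library, in a fit to the libraries of that time alone, and with spike-in scaling. At 360 h 4 of the 26 were called, all higher in KO, and the list's median log2 fold change was 0.65, beside 0.03 over all genes. Slc38a2, a transporter of small neutral amino acids, had 41.5 ± 8.58 CPM in KO and 7.86 ± 1.43 CPM in WT (2.40 ± 0.32, edgeR adjusted p = 8.03e-05). Mthfd2 had 206 ± 12.2 CPM in KO and 77.5 ± 8.83 CPM in WT (1.41 ± 0.28, edgeR adjusted p = 0.00193). Slc1a4, a further neutral amino acid transporter, had 4.29 ± 0.839 CPM in KO and 0.715 ± 0.181 CPM in WT (2.57 ± 0.71, edgeR adjusted p = 0.0172). The fourth was Slc7a5. The 4 called of 26, all higher, are 15.4% of the list, beside 22.5% of all genes called and 8.93% called higher.

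Upstream of Atf4, the list of eIF2α kinases, phosphatases and eIF2B subunits had 0 of 14 called at 260 h and 2 at 360 h, both higher in KO, with medians of 0.10 and -0.08. The 2 are 14.3% of the list, beside 22.5% of all genes called at 360 h (8.93% higher) and 1.89% at 260 h. Eif2b3, a subunit of the exchange factor that recycles eIF2, had 182 ± 6.52 CPM in KO and 14.7 ± 2.45 CPM in WT at 360 h (log2 fold change 3.62 ± 0.32, edgeR adjusted p = 2.87e-06). Eif2ak3, which encodes PERK, had 7.97 ± 2.94 CPM in KO and 1.22 ± 1.48 CPM in WT (2.73 ± 0.75, edgeR adjusted p = 0.0159). Of the 20 cytosolic aminoacyl-tRNA synthetase genes, which load amino acids on tRNA and several of which ATF4 switches on, 0 were called at 260 h and 6 at 360 h, all higher in KO, with medians of -0.10 and 0.49. The 6 are 30.0% of the list, beside the same 22.5% of all genes called at 360 h, 8.93% higher. Mars (1.37 ± 0.31, edgeR adjusted p = 0.00487), Eprs (1.00 ± 0.25, 0.0103) and Sars (0.94 ± 0.27, 0.0200) led them.

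Of 24 ER stress genes tested, 2 were called higher and 6 lower in KO at 360 h, with a median log2 fold change of -0.25, and 0 were called at 260 h. The 8 are 33.3% of the list, beside 22.5% of all genes called at 360 h (8.93% higher and 13.5% lower). Derl1, which takes misfolded proteins out of the ER, had 20.5 ± 2.07 CPM in KO and 58.4 ± 9.31 CPM in WT (-1.51 ± 0.30, edgeR adjusted p = 0.00213). Sdf2l1, an ER lumen protein, had 73.7 ± 15.3 CPM in KO and 254 ± 136 CPM in WT (-1.78 ± 0.41, edgeR adjusted p = 0.00523). The higher ones were Eif2ak3 and Ern1, which encode the sensors PERK and IRE1. In the list of serine, glycine and asparagine metabolism, 18 genes were tested. At 260 h 1 was higher (Mthfd2), which is 5.56% of the list, beside 1.89% of all genes called. At 360 h 4 were higher and 2 lower in KO (33.3% of the list), with a median of 0.05. Gldc, which breaks down glycine, had 4.55 ± 1.05 CPM in KO and 29.6 ± 13.8 CPM in WT at 360 h (-2.69 ± 0.47, edgeR adjusted p = 0.000779). Of 95 genes tested over the 5 lists, 24 were called at 360 h (25.3%), 16 higher (16.8%) and 8 lower (8.42%) in KO, beside 8.93% higher and 13.5% lower over all genes tested. With spike-in scaling, which moved the median of all genes to -0.48 at 360 h, 8 were called, 2 higher and 6 lower. Over all genes tested, that scaling gave 637 higher and 3091 lower in KO at 360 h, against 1811 and 2743 with TMM. Higher calls thus fell from 16 to 2 of the 95 list genes, and from 1811 to 637 of all 20279 genes tested. The larger share of higher calls in the lists was therefore seen with TMM and not with spike-in scaling. The cause was not tested.

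Over the pachytene cells of each library, Spearman's rho of thinned Asns counts with the other genes ranged from -0.42 to 0.39, and 83 of 93 coefficients lay between -0.2 and 0.2, in counts too sparse to read further. Across the 12 libraries, the 5 genes with the most similar pattern among 6926 compared (Pearson's r of log2(CPM + 1), a description) were Pmm1 (0.964), Grb10 (0.950), Rfc5 (0.942), Zcwpw1 (0.942) and Nup210 (0.937). These libraries differ in genotype, time and depth, and Asns was chosen for its genotype difference, so the r values carry no test. Only genes with a mean of at least 20 CPM over the libraries were compared, without Gm and Rik symbols. Phgdh, Atf5, Xbp1, Trib3 and Chac1 lay below that limit and could not be among the 5. Psat1, Atf4, Ddit3 and Hspa5 were compared and were not among the 5.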

How the data were processed

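The deposited values are raw UMI counts per gene and cell barcode, made by the authors from single cells by barcoded Smart-seq2 with capture of the cDNA 3′ end, per the labels' protocols. Upstream tools were STAR 2.5.3a, featureCounts 1.6.4 and UMI-tools 1.0.0 on mm10, per the submitters' processing notes, which give no settings. The authors' deposited cell table (929 cells, other values not used) gave kept cells and 5 clusters. Doublets were left as deposited, since each cell was picked singly, per the labels. Counts of kept cells were summed per library (3601518 to 27202665 gene UMIs, the depth that limits low genes), the 92 spike-ins left out. edgeR 4.0.16 (filterByExpr, TMM, quasi-likelihood F-test, robust, 12 libraries, 1 coefficient per group; two-sided) tested 20279 genes, adjusted by Benjamini-Hochberg over all of them and called under 0.05. The edgeR step was first run on simulated data with less spread than these libraries and only large changes, which checks the code and not the error rate here. CPM is per 1000000 TMM-scaled UMIs, or per 1000000 UMIs of the sum for clusters, and a log2 fold change has its SE. In edgeR that SE is the size of the log2 fold change over the root of the test's F value. The 95% intervals of fold changes take it as normal, so they are somewhat narrower than the F-test implies. DESeq2 1.42.0, other scalings, filters, cells and left-out libraries were alternatives. Named genes were the 10, Zfp541, up to 3 called genes of smallest p per list and genotype comparison, and the 5 most like Asns; Slc7a5, Ern1 and the spermatid marker cells were named after their values were seen, and 1 gene that the rule names is not reported here. The 10 genes and all lists were chosen with earlier results of these data known. Intervals of shares are exact binomial and cover counting error only.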

Additional observations from a re-analysis of the deposited data

Results flagged for a closer look

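For 3 named genes of the pathway lists the KO effect differed between the times in edgeR's test of the difference (360 h minus 260 h, adjusted over all genes tested). That test called 5.08% of all genes tested. By list it called 7.69% of the amino acid response targets, 7.14% of the eIF2α list and 11.1% of the serine, glycine and asparagine list. It called 0% of the aminoacyl-tRNA synthetase and ER stress lists. Eif2b3 differed by 3.57 ± 0.42 on the log2 scale (adjusted p = 0.000339 in edgeR), with KO over WT at 3.62 at 360 h and 0.05 at 260 h. Slc38a2 differed by 2.04 ± 0.43 (adjusted p = 0.0125 in edgeR), with 2.40 at 360 h and 0.36 at 260 h. Gldc differed by -3.30 ± 0.66 (adjusted p = 0.00915 in edgeR), with -2.69 at 360 h and 0.60 at 260 h. Depth and the share of pre-meiotic cells also differ between the groups, and their part in these differences was not tested.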

How the results depend on the processing

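Over 23 alternatives (22 for the difference between the times, where a fit to the libraries compared is the fit already used), Asns in KO over WT was 1.88 to 3.69 at 260 h and 3.04 to 4.03 at 360 h. Asns was chosen for being higher in KO in these same libraries, so its kept direction is a description and no support. The share of cells with an Asns UMI moved without thinning to 87.4% in KO at 260 h, and 96.8% in KO and 28.0% in WT at 360 h. Of the other 8 genes, the count called in KO over time was 1 with spike-in scaling, without pre-meiotic cells and in the pachytene class alone, and the count for the difference was 1 with DESeq2. Leaving out a library gave 1 to 3 called at 360 h, and of the pathway genes 0 to 1 at 260 h and 10 to 23 at 360 h. Pathway genes called at 260 h were 0, against 1, with spike-in scaling, in the fit to the libraries compared and with WT library 3 as the sole WT library at 260 h (chosen after seeing the data), and 8, against 24, at 360 h with spike-in scaling. With spike-in scaling the median over all genes became -0.28 at 260 h, -0.48 at 360 h, 0.33 in WT over time and -0.18 for the difference, and left 0 of the 8 genes higher and 2 lower in KO at 360 h. Uncalled values near 0 turned sign, and the cause was not tested. With spike-in scaling Xbp1 and Hspa5 at 260 h were -0.12 and -0.13, Atf4 was -0.39 at 360 h and 0.27 in WT over time, Hspa5 was 0.16 in WT over time, and Asns was 0.10 in KO over time. With WT library 3 as the sole WT library at 260 h, Phgdh was 0.44, Ddit3 0.36, Xbp1 -0.09 and Hspa5 -0.27 at 260 h, Trib3 0.04 at 360 h, Xbp1 -0.22 in WT over time, Asns 0.13 in KO over time and Hspa5 0.23 for the difference. Without pre-meiotic cells, as in the pachytene class alone, Xbp1 was -0.87 at 260 h, and Ddit3 in that class alone was 0.13. Without cells holding somatic UMIs, Ddit3 was 0.08 at 260 h, Xbp1 -0.01 and Hspa5 0.08 in WT over time and Asns 0.06 in KO over time. With thinned cells Trib3 was 0.33 at 360 h, Xbp1 -0.03 in WT over time and Asns 0.02 in KO over time. In the fit to the libraries compared Hspa5 was 0.03 at 360 h and Xbp1 -0.07 in WT over time. Hspa5 in WT over time was 0.10 and Asns in KO over time 0.03, both with DESeq2 and with its size factors in edgeR, and Asns was 0.07 with no filter. Leaving out a library gave at 260 h -0.08 to 1.11 for Psat1, -0.57 to 0.49 for Phgdh, -0.58 to 0.06 for Ddit3, -0.01 to 0.34 for Xbp1, -0.74 to 0.11 for Trib3 and -0.14 to 0.66 for Hspa5. At 360 h it gave -1.21 to 0.90 for Trib3 and -0.33 to 0.00 for Hspa5. Over time it gave -0.43 to 0.35 for Xbp1 and -0.23 to 0.31 for Hspa5 in WT, and -0.44 to 0.30 for Asns and -0.35 to 0.05 for Atf5 in KO, and for the difference -0.74 to 1.22 for Trib3 and -0.76 to 0.03 for Hspa5. The numbers of all genes called at 260 h ranged from 115 to 577 without a library, and were 246 with spike-in scaling, 687 with no filter, 953 with DESeq2, 181 in the fit to the libraries compared, 600 without pre-meiotic cells, 576 in the pachytene class alone, 225 without cells holding somatic UMIs and 122 with WT library 3 alone, against 383. At 360 h it was 2600 without KO library 3 and 2816 without KO library 2, against 4554. It was 4989 with WT library 3 alone in WT over time, against 8082. In KO over time it was 2567 with spike-in scaling, 2764 without KO library 1 at 360 h and 3090 without KO library 1 at 260 h, against 4759. For the difference it was 408 with spike-in scaling, 1581 with no filter, 2174 with DESeq2 and 636 with WT library 3 alone, against 1030, and as low as 482 without a library. Same-numbered libraries did not deviate together (correlations -0.199 to 0.223), so the numbers were not read as pairs. With the replicate block the genes called among the 8 stayed 0 at 260 h and 3 at 360 h, Xbp1 in WT over time was -0.02, and Asns was 2.52 at 260 h and 3.60 at 360 h.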
